A study of Mus musculus with 8 samples.

Results

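The 31 genes described here make, sense, take up, store and export cholesterol: 17 enzymes of its synthesis, 5 regulators of the SREBP system, the LXR receptor pair, 3 genes whose transcription LXR drives, and 4 proteins of intracellular transport and storage. They were taken by symbol from a list drawn up for the pathway, and 42 array probes carried one of their names. All 31 passed the filter on dim probes and stand among 13539 genes tested. Their transcripts were measured on 1-colour Agilent arrays in primary spheres from TH-MYCN mice. These are mice of strain 129+Ter/SvJcl, hemizygous for human MYCN behind a tyrosine hydroxylase promoter, and such mice develop neuroblastoma. Cells of the superior mesenteric ganglion of 3-week-old hemizygotes were divided, 1 portion growing with retinoic acid (RA) in the medium and 1 without, and the primary spheres were taken at 8 days. There were 4 biological replicates, each giving 1 RA array and 1 RA-free array, so the arrays form 4 pairs numbered 1 to 4. All 8 cultures carry the transgene, and no culture of wild-type cells was compared. The dose of RA and the RNA input of single arrays are not given in the sources used here.

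Cells build cholesterol from acetyl-CoA, first through the mevalonate pathway to farnesyl diphosphate and then through squalene and a series of sterol intermediates. When sterols in the endoplasmic reticulum are low, SCAP carries the SREBP precursors to the Golgi, where proteases release the transcription factor that switches on synthesis and lipoprotein uptake, and the INSIG proteins hold SCAP back when sterols are plentiful. When sterols are in excess, their oxidised forms activate LXR, which binds DNA together with RXR and raises the transcription of export pumps and of Mylip, whose product marks the LDL receptor for degradation.

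Both media gave RNA of sympathoadrenal cells. All 13 markers of that lineage, Th and Dbh among them, had a probe well above background on all 8 arrays, and their mean level was 4.27 to 4.50 with RA and 4.42 to 4.59 without it. Single markers moved widely, with 5 called higher and 5 lower, from Th with a change of 3.59 to Slc18a1 with one of −3.12. That is 76.9% called, where 64.3% of all genes tested were. A level here is the log2 of the processed intensity relative to the 75th percentile of its array, so a value of 0 is that percentile, and a change is RA-free minus RA, averaged over the 4 pairs. The RA response genes Rarb, Dhrs3 and Cyp26b1 were lower without RA, with changes of −1.77, −5.00 and −12.59, the last being above background on 1 of 4 RA-free arrays. That percentile lay at 228.2 to 306.1 intensity units, over a local background of 26 to 29, and no probe was saturated. On the first principal component, which held 81.7% of the variance, RA-free array 1 had a score of 42.3, apart from its group's other scores of 59.5 to 66.2.

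Of the 31 members, 9 were called higher and 10 lower in RA-free medium (limma with the pair as a block, Benjamini-Hochberg adjusted p under 0.05 over all genes tested), and 12 were not called. That is 61.3% called, where 64.3% of all genes were called changed, 36.1% higher and 28.2% lower. The share of members called was thus close to the background. Of the 17 synthesis genes, 7 were higher and 2 lower, with a median change of 0.01. Of the 14 members outside synthesis, 2 were higher and 8 lower, with a median of −0.33. The median of all genes tested was 0.07. These counts moved with the processing. Under either quantile normalization 4 synthesis genes were higher and 7 lower, with the 75th percentile taken over probes above background on all arrays 4 were higher and 5 lower, and under spike-in scaling 3 were higher and 0 lower. Without pair 2 the members called higher were 5, and without pair 3 or pair 4 those called lower were 6.

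**Figure D1:**
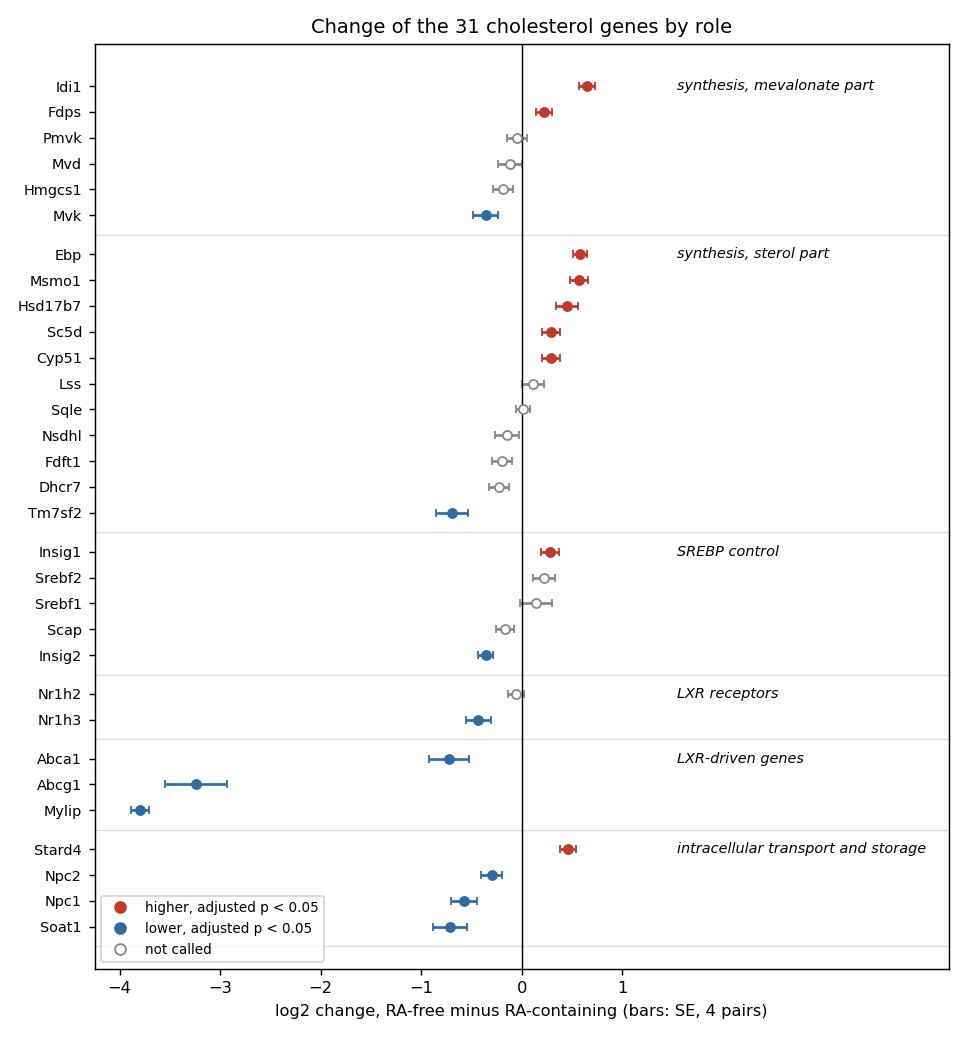
Change of each of the 31 members in RA-free against RA medium on the log2 scale, with the SE from limma over the 4 pairs as a bar and the members grouped by role. Red points are called higher, blue points lower and open points not called at an adjusted p under 0.05. Mylip at −3.80 and Abcg1 at −3.24 lie far below the other members, which all fall between −0.72 and 0.65.

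The mevalonate part of the pathway was split. Of its 6 members Idi1 and Fdps rose, Mvk fell, and Hmgcs1, Pmvk and Mvd were not called, with a median change of −0.09. That is 50% called, below the 64.3% of all genes. Idi1 makes dimethylallyl diphosphate from isopentenyl diphosphate. Its level was 3.99, 4.34, 4.25 and 4.31 with RA and 4.70, 4.90, 5.07 and 4.81 without it, in the order of pairs 1 to 4 that all such values follow. Every RA-free array was above every RA array. Groups without overlap, in either direction, were common: 7216 of the 13539 genes tested had them, as did 13 of the 31 members. Idi1 rose 1.57-fold, from a mean of 4.22 ± 0.16 to 4.87 ± 0.16 (SD, n = 4; log2 change 0.65, SE 0.08, adjusted p = 0.00126 by limma). Fdps, the farnesyl diphosphate synthase, stood at 5.85, 6.01, 5.97 and 6.12 with RA, and at 6.20, 6.21, 6.21 and 6.21 without it. The groups did not overlap, yet the change of 0.22 (SE 0.08, adjusted p = 0.0465 by limma) turned to −0.16 and −0.19, not called, under the 2 quantile normalizations, and the call was lost when any 1 pair was left out. Mvk, mevalonate kinase, read 5.42, 5.28, 5.60 and 5.33 with RA, against 5.31, 4.95, 4.87 and 5.06. RA-free array 1 lay within the RA range and the other 3 below it (change −0.36, SE 0.12, adjusted p = 0.0361 by limma). The Mvk call was lost in 5 of the 13 alternative analyses, among them those without pair 2, 3 or 4.

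Hmgcs1, the cytosolic HMG-CoA synthase that feeds the pathway, was not called. Its level ran from 6.46 to 6.61 on the RA arrays and stood at 6.65, 6.32, 6.22 and 6.17 on the RA-free arrays, so that RA-free array 1 was the highest of all 8 and the other 3 were the lowest. The change was −0.19 (95% interval −0.43 to 0.06, adjusted p = 0.151 by limma). Without pair 1 it was called lower at −0.29. It was also called lower under both quantile normalizations and with the 75th percentile taken over probes above background on all arrays. The lowest of these changes was −0.65. Pmvk, phosphomevalonate kinase, had a change of −0.05 (95% interval −0.29 to 0.19) on both of its probes, and Mvd, which decarboxylates mevalonate diphosphate, one of −0.12 (95% interval −0.43 to 0.18). Pmvk was called lower under both quantile normalizations, at −0.40 at the lowest.

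From squalene synthesis onward more genes were called higher than lower, a balance that 3 of the scalings turned over the whole of synthesis. Of these 11 members, Ebp, Msmo1, Hsd17b7, Cyp51 and Sc5d rose, Tm7sf2 fell and 5 were not called, with a median change of 0.11. That is 54.5% called, 45.5% higher and 9.09% lower, against 64.3%, 36.1% and 28.2% of all genes. Ebp, the sterol isomerase that shifts the double bond of the B ring, stood at 3.97, 4.32, 4.51 and 4.31 with RA and at 4.65, 4.89, 4.96 and 4.93 without it. Msmo1, the oxidase that starts the removal of the C4 methyl groups, read 4.11, 4.36, 4.33 and 4.40 against 4.74, 4.84, 5.08 and 4.81. For both genes the RA-free arrays lay above all RA arrays. Ebp rose 1.49-fold (log2 change 0.58, SE 0.07, adjusted p = 0.0012) and Msmo1 1.48-fold (0.57, SE 0.09, adjusted p = 0.00221 by limma). The lowest changes over the scalings, under quantile normalizations, were 0.28 for each, and 0.37 for Idi1. Hsd17b7 encodes a ketosteroid reductase of C4 demethylation. It went from 1.10, 1.18, 0.92 and 1.13 to 1.66, 1.47, 1.67 and 1.35, again without overlap (change 0.45, SE 0.11, adjusted p = 0.0135 by limma). Cyp51, the lanosterol demethylase, and Sc5d, the sterol C5 desaturase, each had a change of 0.29 (SE 0.09 for each, adjusted p = 0.0345 and 0.0296 by limma). Of 13 alternatives, the Cyp51 call held in 5 and the Sc5d call in 4.

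Tm7sf2, a sterol C14 reductase, went the other way. With RA it lay at 3.97, 3.93, 3.85 and 3.91, a narrow range, and without RA at 3.77, 3.33, 2.73 and 3.07. All RA-free arrays were below all RA arrays, and pair 1 differed least. The mean fell from 3.92 ± 0.05 to 3.22 ± 0.44 (SD, n = 4; change −0.69, SE 0.16, adjusted p = 0.0101 by limma), and the second probe gave −0.78. Lbr, the lamin B receptor, carries the same C14 reductase activity and is not among the 31. It stood at 0.86, 0.94, 0.89 and 1.12 with RA and at 2.04, 2.23, 2.41 and 1.98 without it. Lbr thus rose (change 1.21, SE 0.12, adjusted p = 0.000481 by limma; 1.25 on its second probe) where Tm7sf2 fell, and the signs of both changes held in all 13 alternatives.

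The sterol-part members that were not called had small changes. Sqle, the squalene epoxidase, had the smallest, 0.01 (95% interval −0.16 to 0.19, adjusted p = 0.869 by limma), and Lss, which closes the squalene rings to lanosterol, 0.11 (95% interval −0.15 to 0.37). Fdft1, squalene synthase, had a change of −0.20 (95% interval −0.44 to 0.05). Nsdhl, the dehydrogenase of C4 demethylation, had one of −0.15, and Dhcr7, which reduces the C7 double bond in the last steps, one of −0.23 (95% interval −0.48 to 0.01). The value of Sqle depended on the scaling: it was called lower, at −0.39 and −0.34, under the 2 quantile normalizations. Fdft1 and Dhcr7 were called lower under both of these and with the 75th percentile taken over probes above background on all arrays. Their lowest changes there were −0.34 and −0.35. Dhcr7 was also called lower without pair 1, and Nsdhl without pair 3.

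The promoters of the synthesis genes that could be searched share a short motif, found also in most of the other members searched. SREBP binds the sterol regulatory element and is known to act there with NF-Y, which binds the CCAAT box. RefSeq windows of GRCm38.p6, which run from 250 bases before to 50 bases after a transcription start, could be matched for 25 of the 31 members. Fdps, Fdft1, Sqle, Stard4, Abcg1 and Npc1 had no window. All 14 synthesis genes with a window held CCAAT on either strand, and so did 7 of the 11 other members, where 41.1% of 27025 genes did. The sterol regulatory element core, TCACNCCAC, was found on either strand in Hmgcs1 alone, where 1.44% of genes held it, and the E-box CACGTG in 6 of the 25 members against 8.09% of genes. A match is a description of letters and shows no binding. The 200 bases before the start follow for Hmgcs1 (chr13:119690151-119690350, plus strand), which holds the element, and for the 3 synthesis genes that kept their rise in every alternative: Idi1 (chr13:8885406-8885605, plus), Msmo1 (chr8:64733579-64733778, minus) and Ebp (chrX:8193513-8193712, minus). They are written 5′ to 3′ on the gene's strand, with CCAAT, its reverse complement ATTGG and the element in capitals.
Hmgcs1: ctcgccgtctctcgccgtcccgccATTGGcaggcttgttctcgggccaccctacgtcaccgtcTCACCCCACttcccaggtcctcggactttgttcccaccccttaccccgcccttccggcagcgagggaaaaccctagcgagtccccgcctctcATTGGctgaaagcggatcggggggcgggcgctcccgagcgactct
Idi1: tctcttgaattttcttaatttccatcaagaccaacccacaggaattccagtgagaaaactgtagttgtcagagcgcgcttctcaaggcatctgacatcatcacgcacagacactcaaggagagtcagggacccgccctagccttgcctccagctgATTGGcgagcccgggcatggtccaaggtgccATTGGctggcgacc
Msmo1: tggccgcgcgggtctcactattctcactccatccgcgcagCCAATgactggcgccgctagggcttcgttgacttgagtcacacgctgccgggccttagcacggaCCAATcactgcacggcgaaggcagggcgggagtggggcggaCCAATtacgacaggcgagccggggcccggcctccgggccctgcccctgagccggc
Ebp: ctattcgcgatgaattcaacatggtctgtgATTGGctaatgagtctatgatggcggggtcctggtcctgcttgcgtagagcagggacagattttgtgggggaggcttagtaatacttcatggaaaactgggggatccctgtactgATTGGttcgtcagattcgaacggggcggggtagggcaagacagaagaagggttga
Hmgcs1 holds the element between a pair of CCAAT boxes, Msmo1 holds 3 boxes, and Idi1 and Ebp hold 2 each.

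Among the 5 regulators of SREBP, Insig1 rose, Insig2 fell, and Srebf1, Srebf2 and Scap were not called. That is 40% called, below the 64.3% of all genes. Srebf2 encodes the SREBP that mainly drives cholesterol synthesis. Its level was −0.10, −0.64, −0.78 and −0.15 with RA and 0.22, −0.12, −0.83 and −0.04 without it. The groups overlapped, 3 of 4 pairs were higher, and the change was 0.22 (SE 0.11, 95% interval −0.05 to 0.50, adjusted p = 0.127 by limma). Srebf1, whose product mainly drives fatty acid synthesis and whose transcription LXR can raise, read −2.61, −3.26, −2.68 and −2.91 against −2.08, −2.91, −3.08 and −2.84. These values overlapped as well (change 0.14, 95% interval −0.26 to 0.53, adjusted p = 0.489 by limma). Scap, the carrier of both precursors, had a change of −0.17 (95% interval −0.40 to 0.05). Under 3 of the scalings Scap was called lower, at −0.28 at the lowest.

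The 2 Insig genes moved in opposite directions. Insig1, itself a target of SREBP, stood at −0.71, −1.17, −1.09 and −1.18 with RA and at −0.51, −0.65, −0.92 and −0.95 without it. All 4 pairs were higher although the groups overlapped, and the change was 0.28 (SE 0.09, adjusted p = 0.0327 by limma). Insig2, which is not driven by SREBP in the same way, stood at 2.10, 2.22, 2.32 and 2.31 with RA and at 1.78, 1.94, 1.93 and 1.87 without it. The groups did not overlap, and it fell by 0.36 (SE 0.07, adjusted p = 0.00601 by limma), with −0.29 on its second probe. The Insig1 call held in 5 of 13 alternatives and the Insig2 call in 12.

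The 3 members listed as LXR-driven were all called lower: the export pumps Abcg1 and Abca1, and Mylip, which acts on uptake through the LDL receptor. Of all genes, 28.2% were called lower. The median change of the 3 was −3.24, the value of Abcg1. Srebf1, which LXR can also raise, is listed with the SREBP regulators and was not called at 0.14. Mylip, the ubiquitin ligase also called IDOL, lay at 1.10, 0.86, 0.90 and 0.75 with RA and at −2.73, −2.82, −3.13 and −2.88 without it. Its mean fell from 0.91 ± 0.15 to −2.89 ± 0.17 (SD, n = 4), 13.9-fold (log2 change −3.80, SE 0.09, adjusted p = 2.35e-05 by limma), and its second, dimmer probe, above background on 4 RA and 0 RA-free arrays, gave a fall of at least 1.67-fold. Abcg1, which passes cholesterol to lipoprotein particles, read 0.62, 0.38, 0.66 and 0.55 with RA against −1.53, −2.72, −3.42 and −3.09. The 4 RA arrays were tightly grouped and RA-free array 1 was the least reduced. The mean went from 0.55 ± 0.13 to −2.69 ± 0.83, 9.45-fold lower (log2 change −3.24, SE 0.31, adjusted p = 0.000444 by limma).

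Abca1, the pump that loads cholesterol and phospholipid onto apolipoprotein A-I, fell much less. It was dim in both media, at −2.41, −2.93, −2.35 and −2.46 with RA and −3.02, −2.98, −3.38 and −3.66 without it, and was well above background on 3 of the 4 RA-free arrays. The groups did not overlap, but RA array 2 and RA-free array 2 lay side by side. It fell 1.65-fold (log2 change −0.72, SE 0.20, 95% interval −1.21 to −0.24, adjusted p = 0.0206 by limma), and its interval does not meet that of Abcg1, −4.01 to −2.47. The Abca1 call was lost without pair 3, without pair 4 and under spike-in scaling, where the changes were −0.62, −0.57 and −0.57, and under normexp with quantile normalization it was −0.26.

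Of the receptors, Nr1h3 was called lower and Nr1h2 was not called. Nr1h2, which encodes the widely expressed LXR beta, stood at 2.72, 2.81, 2.84 and 2.63 with RA and at 2.73, 2.69, 2.65 and 2.69 without it. The groups overlapped, and the change was −0.06 (95% interval −0.25 to 0.13, adjusted p = 0.526 by limma). Nr1h3, which encodes LXR alpha, was near the detection limit at −4.31, −4.19, −3.83 and −3.42 with RA and −4.63, −4.30, −4.56 and −3.98 without it. Its probe was well above background on 4 RA arrays and on 0 RA-free arrays, so only a bound can be given: at least 1.23-fold lower, from means of −3.94 and −4.37 (adjusted p = 0.0213 by limma). This probe passed the filter on dim probes through the RA arrays alone, which by itself favours a fall. The second probe, above background on 1 RA-free array, gave −0.92. The Nr1h3 call held in 7 of 12 alternatives, and under normexp with quantile normalization its change of −0.11 was smaller than the bound. Of the RXR partners, Rxrb had a change of −0.03 (not called) and Rxrg fell by 0.29 (adjusted p = 0.0355), while its second probe gave 0.22 and the call held in 6 of 13 alternatives, and Rxra did not pass the filter.

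A repeat of the letters GGTNA with 5 bases between, the core of the direct repeat that LXR and RXR bind as a pair, was sought on both strands of the same windows. It was found in Abca1 and Srebf1, 2 of the 25 members with a window, where 0.818% of genes held it. Abcg1 had no window, so the repeat could not be sought there. The form with 6 bases between, the core of the repeat that RA receptors bind, was in 0 member windows and in 0.718% of genes, which says only that these letters are not in these windows. The 200 bases before the start of Abca1 (chr4:53159896-53160095, minus strand), Srebf1 (chr11:60210472-60210671, minus, 1 of its 3 starts) and Mylip (chr13:45389542-45389741, plus) are given to set the gene with the smaller fall beside the uncalled Srebf1 and the gene with the largest fall. Capitals mark the repeat, here on the opposite strand, CCAAT boxes of either strand and the E-box.
Abca1: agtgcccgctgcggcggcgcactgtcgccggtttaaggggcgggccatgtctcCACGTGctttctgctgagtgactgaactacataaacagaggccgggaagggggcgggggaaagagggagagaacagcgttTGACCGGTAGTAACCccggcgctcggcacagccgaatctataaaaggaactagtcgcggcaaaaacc
Srebf1: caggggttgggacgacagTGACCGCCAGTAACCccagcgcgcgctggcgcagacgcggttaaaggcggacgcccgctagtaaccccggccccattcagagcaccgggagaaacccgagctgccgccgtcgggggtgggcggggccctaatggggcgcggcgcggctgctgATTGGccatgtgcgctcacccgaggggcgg
Mylip: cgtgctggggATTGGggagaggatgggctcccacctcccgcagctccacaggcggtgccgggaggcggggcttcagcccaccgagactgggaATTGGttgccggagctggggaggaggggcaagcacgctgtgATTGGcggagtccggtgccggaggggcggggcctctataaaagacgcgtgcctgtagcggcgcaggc
Abca1 and Srebf1 hold the repeat and had changes of −0.72 and 0.14, while Mylip holds no such letters in this window and changed by −3.80. The search covered only these short windows and 1 exact form of the repeat, so it cannot tell whether Mylip has such a site elsewhere. A link between these letters and the changes was not tested.

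Set side by side, the synthesis genes and the LXR-driven genes had different medians in each pair of cultures. The median change of the 17 synthesis genes was 0.13, 0.02, 0.05 and −0.05 in pairs 1 to 4, and that of Abca1, Abcg1 and Mylip −2.15, −3.10, −4.03 and −3.63. Averaged over the pairs, the synthesis genes ranged from −0.69 to 0.65, far from Abcg1 at −3.24 and Mylip at −3.80 but not from Abca1, whose −0.72 lay beside the −0.69 of Tm7sf2. In pair 2 Abca1 changed by −0.05 and in pair 3 by −1.03, where Tm7sf2 changed by −0.61 and −1.12, so that Abca1 lay within the range of synthesis there. The sign of the synthesis median turned with the scaling, from −0.21 under quantile normalization to 0.17 under spike-in scaling, whereas the median of the LXR-driven genes kept its sign in all 13 alternatives, from −3.60 to −2.17. The median of all genes moved with the scaling too, from −0.04 to 0.23.

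**Figure D2:**
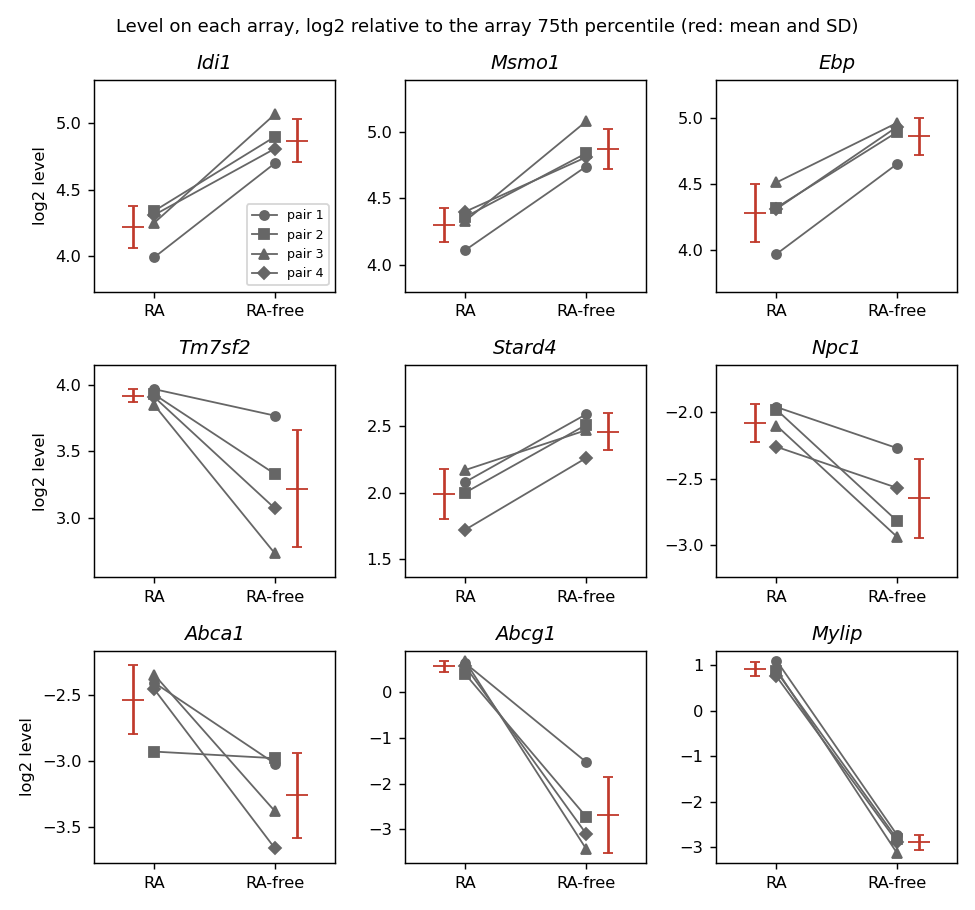
Level of 9 called members on each of the 8 arrays, as log2 of the processed intensity relative to the array's 75th percentile, with a grey line joining the RA and RA-free arrays of each pair and the mean and SD of each group in red; each panel has its own vertical scale. Abcg1 and Mylip drop by over 2 log2 units in every pair, Idi1, Msmo1, Ebp and Stard4 rise by less than 1, and Abca1 stays almost level in pair 2.

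**Figure D3:**
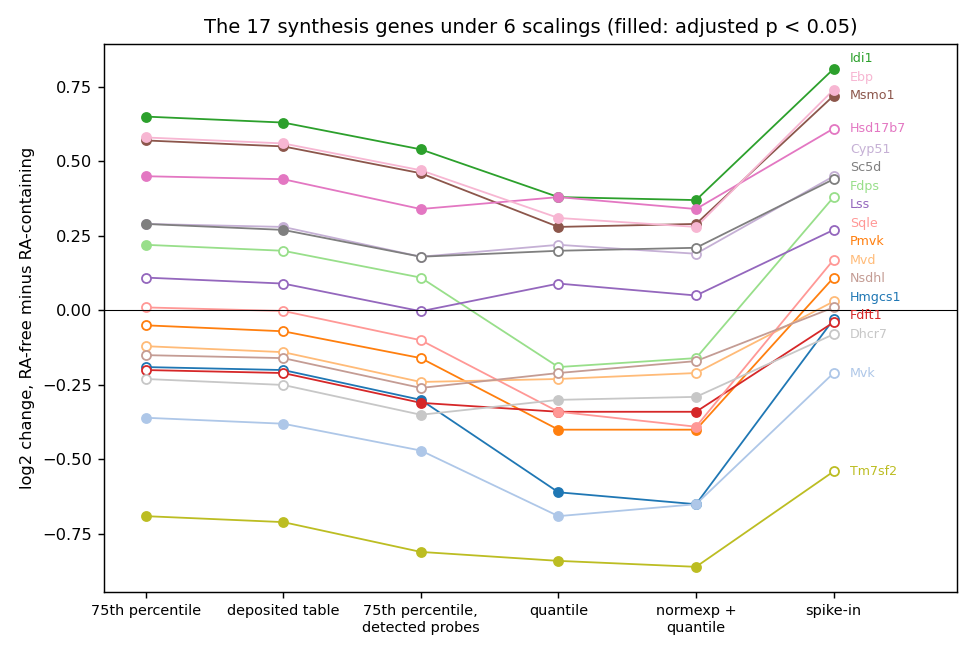
Log2 change, RA-free minus RA, of the 17 synthesis genes under 6 ways of scaling the arrays, 1 line a gene, with filled points where the adjusted p was under 0.05. Idi1, Msmo1 and Ebp stay above 0 and called under each scaling, Tm7sf2 stays lowest, and Sqle, Fdps, Pmvk, Mvd, Nsdhl and Lss cross 0.

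Of the genes of intracellular transport and storage, Stard4 rose and Npc1, Npc2 and Soat1 fell. That is 100% called, 25% higher and 75% lower, against 64.3%, 36.1% and 28.2% of all genes. Stard4, a soluble carrier of cholesterol between membranes and a target of SREBP, stood at 2.08, 2.00, 2.17 and 1.72 with RA and at 2.59, 2.51, 2.47 and 2.26 without it. The groups did not overlap (change 0.46, SE 0.08, adjusted p = 0.00297 by limma), and the second probe gave 0.64. Npc1 and Npc2 hand cholesterol out of the lysosome, as membrane and soluble partner. Npc1 read −1.96, −1.98, −2.10 and −2.26 against −2.27, −2.82, −2.94 and −2.57, with pair 1 changing least but no overlap (change −0.57, SE 0.13, adjusted p = 0.0104 by limma). Npc2 read 3.19, 3.59, 3.64 and 3.35 against 3.13, 3.20, 3.12 and 3.12, where RA array 1 lay beside the RA-free arrays (change −0.30, SE 0.10, adjusted p = 0.0387 by limma). Soat1, which esterifies cholesterol for storage, read −3.00, −3.29, −3.13 and −2.53 against −3.26, −3.69, −4.24 and −3.61, with RA-free array 1 inside the RA range (change −0.71, SE 0.17, adjusted p = 0.0136 by limma). The Npc2 call was lost in 5 of 13 alternatives and the Soat1 call in 2 of 12.

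The wider pathway was read from lists that hold no member, with 59 genes tested: 14 were higher (23.7%), 23 lower (39.0%) and 22 not called, with a median change of −0.02. Of all genes, 36.1% were higher and 28.2% lower. Among 9 further enzymes of synthesis and its branches, 4 were higher and 0 lower. That is 44.4% called, below the 64.3% of all genes. Tmem97, a sterol-responsive membrane protein that binds NPC1, rose most. It stood at 2.03, 2.49, 2.20 and 2.43 with RA and at 3.46, 3.86, 3.95 and 3.90 without it, without overlap (2.84-fold, log2 change 1.51, SE 0.09, adjusted p = 0.000114 by limma). Pdss1, which makes the side chain of coenzyme Q, rose by 0.91 (SE 0.09). Dhdds, of dolichol synthesis, had 0.41 on the probe used and −0.41 on its other probe, so that its direction is uncertain.

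Of 10 genes of SREBP proteolysis and of the degradation of sterol-regulated proteins in the endoplasmic reticulum, 5 were higher and 2 lower. That is 70% called, close to the 64.3% of all genes. Ufd1, of the complex that pulls proteins out of the membrane, rose by 0.78 (SE 0.11, adjusted p = 0.0016), with 0.28 and no call on its second probe. Mbtps1, the protease of the first SREBP cut, rose by 0.35 (SE 0.07, adjusted p = 0.00678 by limma), but had 0.02 and 0.04 under the 2 quantile normalizations and kept its call in 10 of 13 alternatives. Syvn1, a ubiquitin ligase of the same membrane, fell by 0.53 (SE 0.10, adjusted p = 0.00529 by limma). Faf2, an adaptor of that degradation, rose by 0.45 on the probe used but had −0.20 on its other probe. Of 6 lipoprotein receptors, Lrp1 fell by 1.14 (SE 0.07, adjusted p = 0.000147), Sort1 rose by 0.22 (SE 0.08, adjusted p = 0.0473 by limma), and 4 were not called. The Sort1 call held in 3 of 13 alternatives. Of the receptors 33.3% were called, below the share of all genes.

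The other LXR targets and relatives of the exporters were mostly lower: 10 of 13 fell (76.9%, where 28.2% of all genes did), 1 rose and 2 were not called, with a median change of −0.65. The list was chosen with earlier results of these data known, so this share is a description and no independent test. Ucp2, a mitochondrial carrier, fell by 2.25 (SE 0.12, adjusted p = 9.59e-05), and Apoe, the apolipoprotein that accepts exported cholesterol, by 2.07 (SE 0.17, adjusted p = 0.000271 by limma). Abca7, a lipid transporter related to Abca1, fell by 2.00 (SE 0.19) and Apoc1 by 1.56 (SE 0.08), the latter by 0.64 under normexp with quantile normalization. Lpl, lipoprotein lipase, rose by 0.69 (SE 0.13, adjusted p = 0.00494), and Fasn, fatty acid synthase, was not called at 0.04 (95% interval −0.27 to 0.34).

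Among 19 genes of sterol transport, esters and oxysterols, 3 were higher and 9 lower, with a median of −0.11. That is 63.2% called, where 64.3% of all genes were. The largest changes pointed both ways within the oxysterol-binding family, where Osbpl3 rose by 1.67 (SE 0.09, adjusted p = 9.76e-05) and Osbpl5 fell by 1.31 (SE 0.14, adjusted p = 0.000591 by limma). Cyp7b1, an oxysterol hydroxylase, stood well above background on 4 RA arrays and 0 RA-free arrays, and was at least 1.84-fold lower (adjusted p = 0.00357 by limma). Cyp7b1 passed the filter on dim probes through the RA arrays alone, which by itself favours a fall. Under normexp with quantile normalization its change of −0.40 was smaller than that bound. Stard5 rose by 1.28 (SE 0.29) on the probe used and had 0.20 on its other probe.

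**Figure D4:**
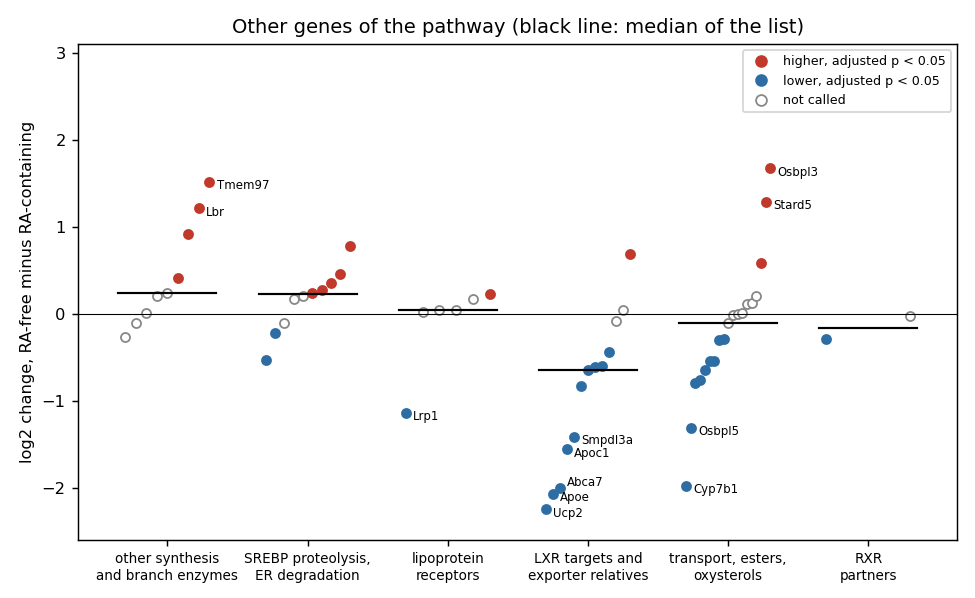
Log2 change of the 59 tested pathway genes outside the 31, by list, with the median of each list as a black line and the colours as in the plot of the members. The 13 LXR targets and exporter relatives lie mostly below 0, with Ucp2, Apoe and Abca7 at −2.00 or lower, and Tmem97 and Lbr lead the synthesis and branch enzymes; Cyp7b1 is drawn at its fitted value of −1.98.

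Several of the genes that fell are also expressed in macrophages or glia, and in bulk RNA fewer cells of a type and less RNA per cell cannot be told apart. Of 14 macrophage and immune markers on the array, 8 had no probe well above background on any of the 8 arrays: Ptprc, Cd14, Lyz2, C1qa, C1qc, Cd52, Tyrobp and Mrc1. Of the 6 tested, 3 fell: Itgam by 0.51, and Adgre1 and Aif1, which were above background on 4 RA and 0 RA-free arrays. Adgre1 and Aif1 thus passed the filter on dim probes through the RA arrays alone, which by itself favours a fall. Itgam had mean levels of 4.23 with RA and 3.72 without it. Csf1r, C1qb and Fcer1g were not called, with changes of 0.02, 0.04 and 0.33. The mean level over all 14, most of them at background, was −4.54 to −4.21 with RA and −4.83 to −4.30 without it. Of 16 markers of Schwann cells and satellite glia, 13 were tested, 6 fell and 1 rose, and the mean level over all 16 was −1.59 to −1.39 with RA and −1.96 to −1.80 without it. Ngfr fell by 2.39 and Fabp7 by 0.99, Sox10 had a change of −0.12 (not called), and Erbb3 had no probe above background on any array. The 12 fibroblast markers on the array averaged −1.84 to −1.32 with RA and −2.21 to −1.96 without it, with 4 of 8 tested lower and 1 higher. Dcn, counted as lower, also passed the filter through the RA arrays alone, with 4 RA and 0 RA-free arrays above background. Of 4 tested adrenocortical markers 2 rose and 0 fell, and the steroid synthesis genes Cyp11a1, Cyp11b1 and Hsd3b1 were not above background on any array. Called shares were 50% for macrophage, 53.8% for glial, 62.5% for fibroblast and 50% for adrenocortical markers, against 64.3% of all genes. The macrophage and fibroblast shares include Adgre1, Aif1 and Dcn. The part of these cells in the changes of Abcg1, Apoe, Npc2 and the others was not tested.

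Across the 13 alternative analyses, Idi1, Msmo1, Ebp, Abcg1 and Mylip were called in all, in 1 direction each. Hsd17b7, Tm7sf2, Insig2, Stard4 and Npc1 were called in 12 of 13 and missed only under spike-in scaling. The other 9 called members each lost their call in at least 2 alternatives, and their changes were all smaller than 1 log2 unit.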

How the data were processed

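Spheres from 4 RA and 4 RA-free cultures were measured on 8 arrays of 1 slide, read in 1 scan. Dates of culture, RNA extraction and labelling are not given in the sources used here. Per the file headers, Agilent Feature Extraction 11.5.1.1 gave the deposited processed intensity, which is background-subtracted and not scaled between arrays. Flags for spots above background, for saturation and for outliers were deposited with it. A log2 table of the same arrays was deposited too. Against the scanner values its columns correlated at 0.9999 or more, for 99.5% of probes the offset was constant within 0.01, and each probe was centred on its mean over the arrays. Its column medians were −0.23, −0.22, 0.02 and −0.01 for RA arrays 1 to 4 and −0.07, 0.01, 0.17 and 0.20 for RA-free arrays 1 to 4, and its exact scaling is unknown.

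Here log2 processed intensity minus the array's 75th percentile was averaged per probe, outlier spots left out (64 probes of 55681). RefSeq accessions named 27235 probes to 20660 symbols through a table of GRCm38.p6, and 28446 probes stayed unnamed. Probes well above background on at least 4 of 8 arrays were tested, with the brightest probe per gene. RA-free minus RA was fitted with limma 3.58.1 in R 4.3.3, two-sided, with the pair as a block and Benjamini-Hochberg adjustment. The number of arrays limits the precision. The pairing comes from the series' description. Deviations of the arrays of a pair from their group means correlated at 0.52, 0.30, 0.19 and 0.33. Among the RA-free arrays, each RA array correlated best with its own partner. The fit was tested on simulated data. For a probe not above background on any array of a group, "at least" sets the bright group's mean against the lowest signals above background.

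The members and lists were chosen with earlier results of these data known. Array-by-array values are given for up to 4 called members a role and for Srebf1, Srebf2, Nr1h2 and Nr1h3, and up to 4 called genes are named from each other list. The 13 alternatives were 4 other scalings of the intensities, the deposited log2 table, 2 filters, the mean of a gene's probes, no block, and each pair left out. The normexp alternative used the spot median, since the files hold no spot mean. Promoter windows came from RefSeq, GRCm38.p6.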

Additional observations from a re-analysis of the deposited data

How the results depend on the processing

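Idi1, Msmo1, Ebp, Abcg1 and Mylip kept direction and call in all 13 alternatives. Their sizes still moved: the lowest rises, under normexp or quantile normalization, were 0.37 for Idi1, 0.28 for Msmo1 and 0.28 for Ebp. The fit without the replicate block for the pairing called 8022 genes in place of 8705 and 7 members higher and 9 lower in place of 9 and 10, with Sc5d, Insig1 and Nr1h3 lost. Under spike-in scaling 5212 genes were called, 3 members were higher and 2 lower, 8 of the other pathway genes were higher (14 in the analysis used) and 10 lower (23), and the synthesis median was 0.17. Members called higher were 5 under normexp with quantile normalization, 5 with the 75th percentile taken over probes above background on all arrays, and 5 with no filter. Members called lower were 16 under quantile normalization of the processed signal. With 1 pair left out, 5 to 6 members were higher and 6 to 12 lower, 7350 to 8245 genes were called, and the synthesis median ran from −0.02 (without pair 1) to 0.04.

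The synthesis median turned from 0.01 to −0.17 under normexp with quantile normalization, −0.21 under quantile normalization, −0.10 with the percentile of detected probes and −0.0019 in the deposited table. The median of Abca1, Abcg1 and Mylip was −2.17 under normexp with quantile normalization. Single genes turned as follows. Sqle had −0.39 under normexp, −0.34 under quantile normalization, −0.10 with the percentile of detected probes, −0.0019 in the deposited table and −0.02 without pair 1. Fdps had −0.16 under normexp and −0.19 under quantile normalization. Lss had −0.0028 with the percentile of detected probes and −0.0035 without pair 1. Pmvk had 0.11 under spike-in scaling and ran from −0.12 (without pair 2) to 0.03 (without pair 3). Under spike-in scaling Mvd had 0.03, Nsdhl 0.01 and Nr1h2 0.10. Dhdds had −0.42 under normexp. The median of all genes moved from 0.07 to −0.01 under normexp, −0.02 under quantile normalization, −0.04 with the percentile of detected probes, 0.23 under spike-in scaling and 0.05 in the deposited table. The cause of these turns was not tested. Nr1h3, Abca1 and Soat1 could not be tested when every array had to be above background, and their signal near background limits their changes.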

Other observations

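A few pathway genes that the report counts without naming are of interest for their role, and were chosen after their values were seen. The desaturases Scd1 and Scd2, which make monounsaturated fatty acids, fell by 0.83 (SE 0.15, adjusted p = 0.00396 by limma) and 0.60 (SE 0.13, adjusted p = 0.00816 by limma), and Lpcat3, which places polyunsaturated chains in phospholipids, fell by 0.61 (SE 0.09, adjusted p = 0.00208 by limma). Abcg4, the close relative of Abcg1, fell by 0.65 (SE 0.10), less than Abcg1 itself. Of the GRAMD1 proteins, which move cholesterol from the plasma membrane to the endoplasmic reticulum, Gramd1a and Gramd1b fell by 0.65 and 0.80, and Gramd1c rose by 0.58 (SE 0.10, adjusted p = 0.00431 by limma). Lipa, the lysosomal lipase that frees cholesterol from its esters, fell by 0.76 (SE 0.12), the same direction as Npc1 and Npc2. Cyp46a1, the neuronal hydroxylase that turns cholesterol into an oxysterol, fell by 0.54 (SE 0.08, adjusted p = 0.00218 by limma).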
